A study of Homo sapiens with 12 samples.

Results

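The splicing factor mRNAs described here are those of SRSF3, SRSF5, SRSF11, TRA2A, RBM39, U2AF2, DDX39B and C7orf55-LUC7L2, chosen by name from a table of RNA clusters crosslinked to the translation initiation factor eIF3. These 8 genes, of 479 in the table, held 41 of its 1477 clusters. A cluster is a short stretch of RNA covered by overlapping crosslinked reads. Clusters of different subunits that overlapped on the same strand were joined into sites, which gave the 8 genes 11 sites of 558.

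The libraries were eIF3g, eIF3d, eIF3b and eIF3a PAR-CLIP libraries of 293T cells, an established line derived from human embryonic kidney, with 3 replicates per subunit and no control library among the samples. All 4 groups carried the same treatment, namely 100 µM 4-thiouridine for 14 h followed by ultraviolet crosslinking at 0.15 J per square cm. They also shared 1 immunoprecipitation antibody, directed at eIF3b, and the complexes were cut from a protein gel after digestion with RNase T1. Each value is the authors' pooled value for a subunit, because no column of the table names a replicate. No value therefore has an SD, and no test between libraries was possible.

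eIF3 is the largest of the mammalian initiation factors and helps to load the small ribosomal subunit onto mRNA. PAR-CLIP uses a uridine analog that crosslinks to a bound protein and is then read as C, so that T-to-C conversions mark crosslinked RNA. The encoded proteins work in splicing: SR proteins join an RNA recognition motif to a tail rich in arginine and serine, bind exonic enhancers and help U1 and U2AF find the splice sites. Several SR and SR-like genes are known to adjust their own output by splicing in exons that send the transcript to decay.

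The clusters lay in the 5′ UTR, and the RNA sequence of a cluster can be read only from an hg19 genome, which was not used here. The DNA just before the transcription start is shown in its place from RefSeq on GRCh38.p14. Of the 8 genes 6 were in that table. The C7orf55-LUC7L2 line is that of the read-through gene FMC1-LUC7L2, and SRSF11 has a downstream and an upstream start. These positions are on another build than the clusters, and the distance from each start to the clusters was not measured. Whether a line precedes the 5′ UTR that held the clusters is therefore uncertain for every gene shown. Each line is the 60 bases before the start, 5′ to 3′ on the gene's strand. Capitals mark 3 motifs searched on both strands and chosen after the sequences were seen: TATAAA, the TATA box, CCGGAAG, the core bound by ETS factors, and CCATNTT, the core bound by YY1.
SRSF3, chr6:36594302-36594361, plus strand: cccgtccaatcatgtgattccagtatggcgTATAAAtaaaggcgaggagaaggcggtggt
SRSF5, chr14:69767082-69767141, plus strand: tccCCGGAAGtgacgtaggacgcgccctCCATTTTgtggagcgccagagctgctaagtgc
U2AF2, chr19:55654975-55655034, plus strand: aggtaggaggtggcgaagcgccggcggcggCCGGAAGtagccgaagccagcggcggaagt
DDX39B, chr6:31542004-31542063, minus strand: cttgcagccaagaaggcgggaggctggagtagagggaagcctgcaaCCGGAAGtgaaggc
SRSF11 downstream start, chr1:70221320-70221379, plus strand: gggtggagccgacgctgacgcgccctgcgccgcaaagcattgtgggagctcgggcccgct
SRSF11 upstream start, chr1:70205636-70205695, plus strand: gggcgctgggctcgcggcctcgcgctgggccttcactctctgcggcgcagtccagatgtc
C7orf55-LUC7L2, chr7:139341277-139341336, plus strand: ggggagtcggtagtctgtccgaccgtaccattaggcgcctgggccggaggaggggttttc

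CCGGAAG stood before the starts of SRSF5, U2AF2 and DDX39B, and 5.27% of the 22078 windows of the same length before protein-coding genes held it. TATAAA stood only before SRSF3 among the lines shown, and 4.12% of the windows held it. CCATNTT stood only before SRSF5 among them, and 1.54% of the windows held it. No motif letters overlapped between motifs. These are letter matches in short windows and describe no binding.

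All 41 clusters of the splicing factor genes were annotated to the 5′ UTR. That annotation was carried by 67.8% of all clusters, and 67.8% of genes had no cluster of another kind. None of the 8 genes had a cluster in a coding exon, an intron, a start codon or a 3′ UTR. The table therefore holds no cluster in an intron of SRSF3, SRSF5, SRSF11 or TRA2A, which encode the SR and TRA2 proteins among the 8.

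Of the 8 genes 6 were listed for every subunit, against 33.6% of all genes in the table, and the other two were listed for 3. SRSF3 had no listed cluster in eIF3a and TRA2A had none in eIF3g. A missing entry gives no level, since the table lists no cluster under 8 reads. The 8 genes had 9 clusters among the 401 of eIF3g, 11 among 403 of eIF3d, 11 among 298 of eIF3b and 10 among 375 of eIF3a.

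Reads in the 8 genes came to 3511 over all subunits, and DDX39B gave 50.8% of them. C7orf55-LUC7L2 followed with 19.2% and U2AF2 with 14.0%, and SRSF5, SRSF11, RBM39, TRA2A and SRSF3 held between 1.22% and 4.98% each. By summed reads DDX39B was the 9th gene of 479, C7orf55-LUC7L2 the 24th and U2AF2 the 37th. SRSF5, SRSF11 and RBM39 ranked 86, 93 and 110, while TRA2A ranked 229 and SRSF3 ranked 284.

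**Figure D1:**
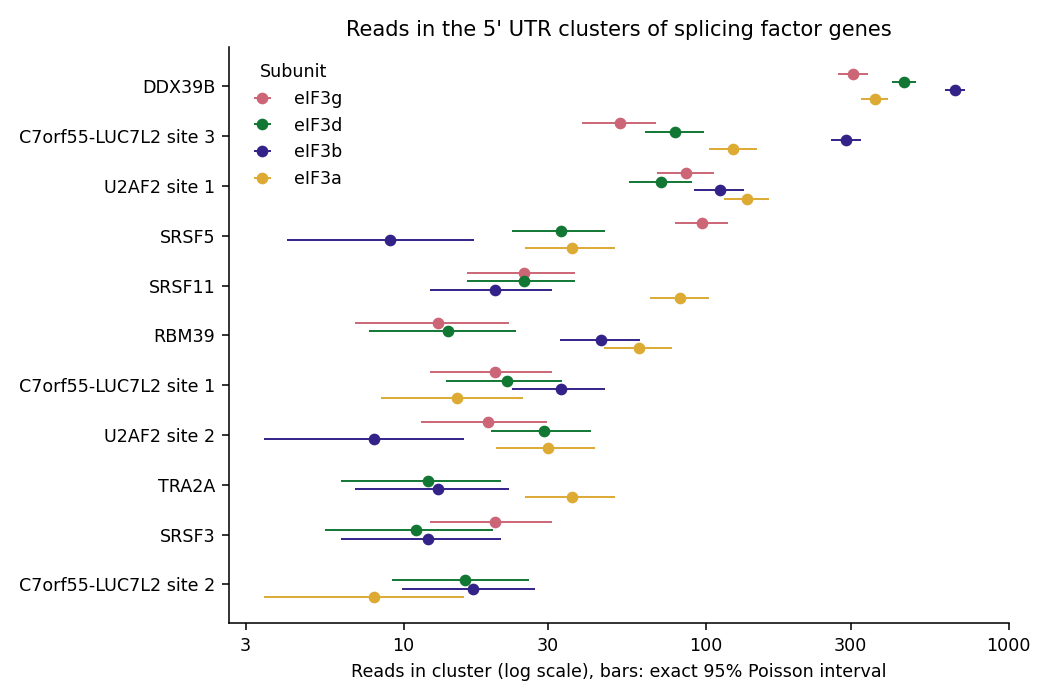
Reads per cluster (log axis) of each splicing factor site, coloured by subunit, with exact 95% Poisson intervals that cover counting error only. DDX39B holds the highest value of the 8 genes in each subunit, between 306 and 665 reads, and the SRSF5 value of eIF3g, 97 reads, stands apart from its eIF3b value of 9 reads.

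DDX39B encodes a DEAD-box ATPase that acts in spliceosome assembly and, in the TREX complex, in mRNA export. Its single 5′ UTR cluster (hg19, chromosome 6, 31508375 to 31508402, minus strand) had 306 reads in eIF3g, 451 in eIF3d, 665 in eIF3b and 361 in eIF3a. It was the strongest cluster of the 8 genes in every subunit. The exact 95% Poisson intervals, which cover counting error only and take reads as independent molecules, were 273 to 342 in eIF3g, 410 to 495 in eIF3d, 615 to 718 in eIF3b and 325 to 400 in eIF3a. In reads the order eIF3b, eIF3d, eIF3a thus held beyond counting error. The intervals of eIF3a and eIF3g overlapped, though the exact conditional 95% interval of the eIF3g over eIF3a ratio was 0.726 to 0.990. Of the subunit's cluster reads DDX39B held 3.47% in eIF3b, 2.39% in eIF3a, 1.87% in eIF3d and 0.490% in eIF3g. By share, eIF3a therefore stood above eIF3d.

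Ranked by reads within a subunit, the DDX39B cluster was number 22 in eIF3g, 5 in eIF3d, 4 in eIF3b and 5 in eIF3a. Among 5′ UTR clusters alone it was number 4 in eIF3g, 3 in eIF3d, 1 in eIF3b and 3 in eIF3a. In eIF3g the cluster just above it was a piwi-class RNA with 325 reads and the one just below was the mitochondrial ribosomal RNA MT-RNR1 with 229. In eIF3d it lay between UBE2D2 with 589 reads and MT-RNR2 with 397. In eIF3b it lay between a coding cluster of EIF3A with 1411 reads and an intronic cluster of IWS1 with 600, and in eIF3a between EIF3H with 370 and LINC00613 with 272. The intervals of DDX39B and of its upper neighbour overlapped in eIF3g and eIF3a and did not overlap in eIF3d and eIF3b.

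The profile of DDX39B over the 4 subunits was set against the 161 genes listed for all of them, as the Euclidean distance of log2 shares of cluster reads. The nearest genes were UBE2D2, a ubiquitin-conjugating enzyme, at 1.59, PTGES3, a co-chaperone, at 2.39 and MORF4L2, a chromatin protein, at 2.80. UBE2D2 had 199 reads in eIF3g, 589 in eIF3d, 276 in eIF3b and 554 in eIF3a, with its maximum in eIF3d. PTGES3 had 193 reads in eIF3g, 159 in eIF3d, 239 in eIF3b and 192 in eIF3a, with its maximum in eIF3b as in DDX39B. The measure rests on 4 points that share 1 antibody, and level weighs in it as much as shape.

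U2AF2 encodes the large U2AF subunit, which binds the polypyrimidine tract before the 3′ splice site. It had 2 sites in its 5′ UTR, 26 nt apart and within 81 nt in all (chromosome 19, plus strand). The upstream site, 56165598 to 56165625, had 86 reads in eIF3g, 71 in eIF3d, 111 in eIF3b and 136 in eIF3a. The downstream site, 56165651 to 56165679, had 19 reads in eIF3g, 29 in eIF3d, 8 in eIF3b and 30 in eIF3a. The upstream site was the higher of the pair in every subunit. In eIF3b the downstream cluster was at the table's minimum of 8 reads, and its interval of 3.45 to 15.8 lay below that of eIF3d, 19.4 to 41.6, and of eIF3a, 20.2 to 42.8.

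C7orf55-LUC7L2 is the file's name for a read-through locus that ends in LUC7L2, a homolog of a yeast U1 snRNP protein that takes part in the choice of 5′ splice sites. The file pairs the name with ENSG00000146963, and RefSeq keeps it as an older name of FMC1-LUC7L2 beside LUC7L2 itself, so which transcript the reads came from is uncertain. It had 3 sites within 192 nt (chromosome 7, plus strand), more than any other of the 8 genes. The first, 139044788 to 139044822, had 20 reads in eIF3g, 22 in eIF3d, 33 in eIF3b and 15 in eIF3a. The second, 139044835 to 139044866, had no entry in eIF3g, 16 reads in eIF3d, 17 in eIF3b and 8 in eIF3a. These first sites held few reads in every subunit, and their intervals overlapped between subunits wherever both were listed.

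The third C7orf55-LUC7L2 site, 139044913 to 139044980, had 52 reads in eIF3g, 79 in eIF3d, 290 in eIF3b and 123 in eIF3a. eIF3b was the highest, with an interval of 258 to 325, and no other subunit's interval reached it. It ranked 69 in eIF3g, 39 in eIF3d, 13 in eIF3b and 20 in eIF3a. The eIF3b cluster was also the widest of all splicing factor clusters, 67 nt long, against 37 nt in the narrowest cluster at that site. In the table's 5′ UTR clusters as a whole the median width was 24 nt, and it was 27 nt in the 8 genes.

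**Figure D2:**
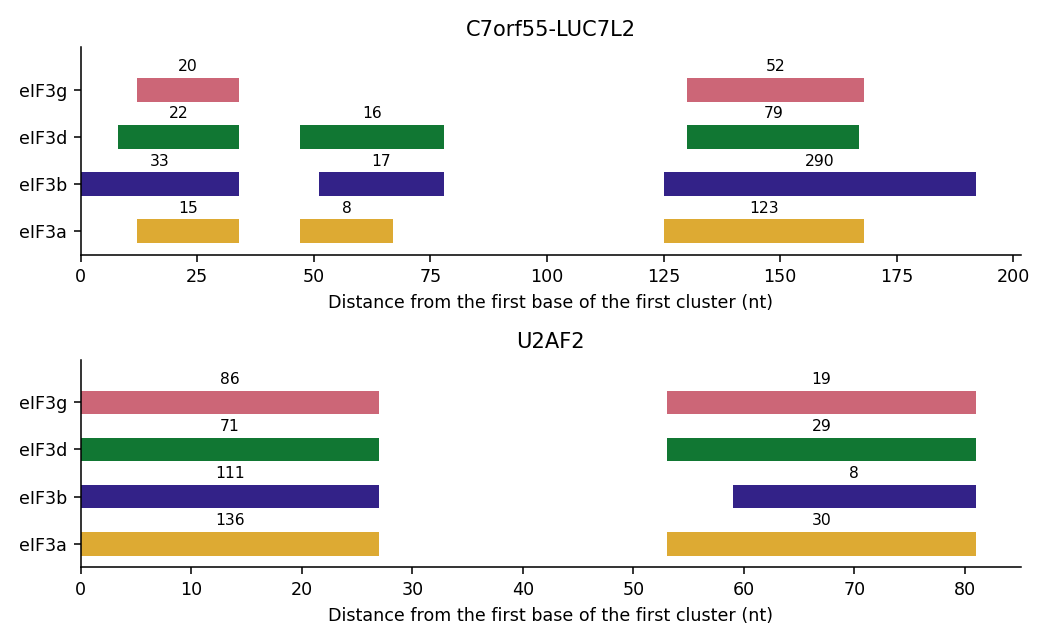
Position of the clusters of C7orf55-LUC7L2 and U2AF2 in each subunit, in nt from the first base of the first cluster, with the reads of each cluster printed above it. The strongest site of C7orf55-LUC7L2 is the last one, with 290 reads in eIF3b, and that of U2AF2 is the first one, with 136 reads in eIF3a.

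More than 1 site was found in 2 of the 8 genes, against 11.9% of all genes in the table. The sites of DDX39B, SRSF11 and the upstream site of U2AF2 had a single start and end in all 4 subunits. That is 3 of 11 sites, against 41.0% of all sites listed for 2 or more subunits. Elsewhere the ends differed by subunit: the first site of C7orf55-LUC7L2 had 1 downstream end and 3 upstream ends, while RBM39 had 1 upstream end and 3 downstream ends.

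SRSF5, an SR protein, had 1 site (chromosome 14, 70233914 to 70233936, plus strand) with 97 reads in eIF3g, 33 in eIF3d, 9 in eIF3b and 36 in eIF3a. eIF3g was the highest and eIF3b the lowest, each apart from the others by its interval. Its rank was 44 of 401 in eIF3g, 129 of 403 in eIF3d, 270 of 298 in eIF3b and 108 of 375 in eIF3a. At this site eIF3g reads were 10.8 times those of eIF3b (exact conditional 95% interval 5.45 to 24.3, counting error only), and 95.7% of the sites shared by the pair had the same or a lower ratio. On the log2 scale the ratio was 3.43, and 1.73 after scaling by the total reads in clusters.

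SRSF11, an SR-related protein known to interact with U2AF, had 25 reads in eIF3g, 25 in eIF3d, 20 in eIF3b and 82 in eIF3a (chromosome 1, 70687244 to 70687267, plus strand). Here eIF3a stood alone, with an interval of 65.2 to 102, and the other subunits lay within each other's intervals. The cluster ranked 34 in eIF3a and 137 to 178 in the others. SRSF3, a small SR protein that shuttles between nucleus and cytoplasm, had 20 reads in eIF3g, 11 in eIF3d and 12 in eIF3b (chromosome 6, 36562153 to 36562192, plus strand). The 3 SRSF3 values had overlapping intervals and lay at or below the median of all clusters of their subunits.

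Among the SR-like proteins, TRA2A, which binds purine-rich exonic enhancers, had 12 reads in eIF3d, 13 in eIF3b and 36 in eIF3a (chromosome 7, 23571556 to 23571584, minus strand). Its eIF3a interval of 25.2 to 49.8 lay above those of eIF3d and eIF3b. RBM39, a U2AF2-related splicing factor, had 13 reads in eIF3g, 14 in eIF3d, 45 in eIF3b and 60 in eIF3a (chromosome 20, 34329972 to 34330009, minus strand). In RBM39 the low subunits were eIF3g and eIF3d and the high ones eIF3b and eIF3a, with no overlap of intervals between the pairs. By read count SRSF11, TRA2A, RBM39 and both U2AF2 sites were highest in eIF3a, SRSF5 and SRSF3 in eIF3g, and C7orf55-LUC7L2 and DDX39B in eIF3b. Not all of these maxima held beyond counting error. For RBM39, SRSF3, both U2AF2 sites and the first and second C7orf55-LUC7L2 sites, the ratio to another subunit had an interval that includes no change. As a share of the subunit's cluster reads SRSF5 was highest in eIF3a, at 0.155% in eIF3g and 0.238% in eIF3a, and SRSF3 in eIF3b, at 0.0320% in eIF3g and 0.0625% in eIF3b.

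**Figure D3:**
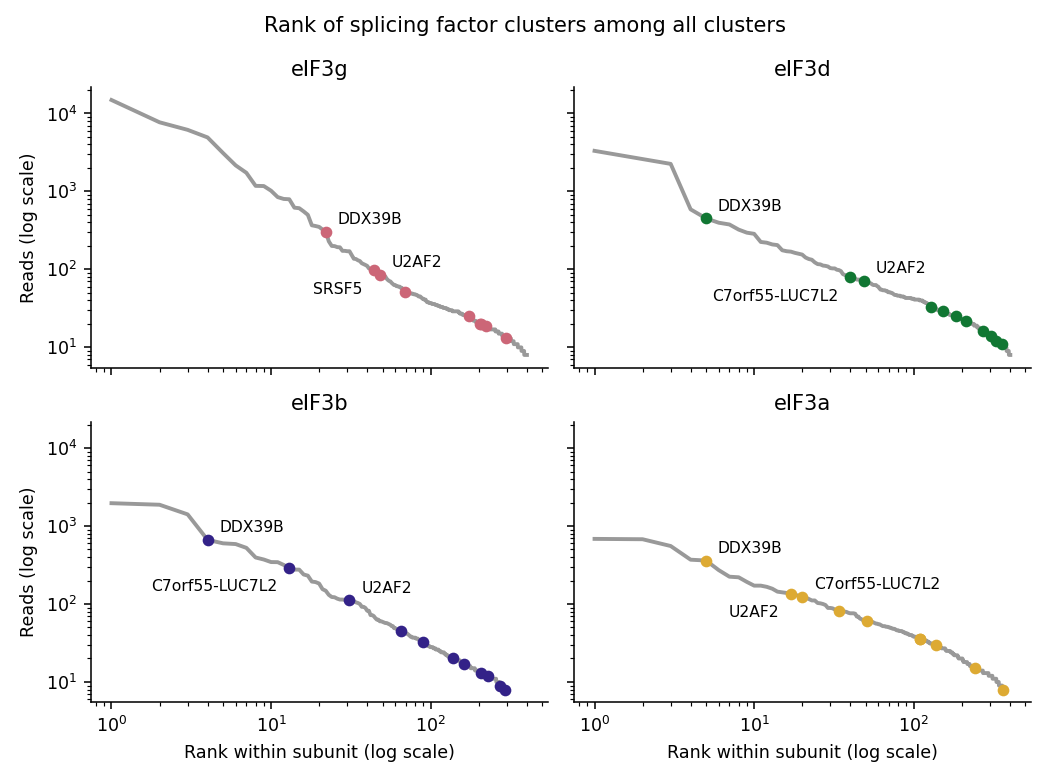
Reads against rank within each subunit (both axes log), with all clusters as a grey line and splicing factor clusters as points, the 3 strongest named. DDX39B stands at rank 22 in eIF3g, 5 in eIF3d, 4 in eIF3b and 5 in eIF3a. With ties sharing the better rank, the lowest splicing factor clusters rank 294 of 401 in eIF3g and 346 of 403 in eIF3d. In eIF3b they rank 282 of 298 and in eIF3a 359 of 375. Tied clusters are drawn at successive ranks, so the lowest points can stand further right.

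The splicing factor clusters ran from 13 to 306 reads in eIF3g, from 11 to 451 in eIF3d, from 8 to 665 in eIF3b and from 8 to 361 in eIF3a. Their median was 25 reads in eIF3g, 25 in eIF3d, 20 in eIF3b and 48 in eIF3a, and over all clusters it was 20 in eIF3g, 23 in eIF3d, 19 in eIF3b and 22 in eIF3a. Above the subunit's median lay 25 of the 41 clusters (61.0%). These were 5 of 9 in eIF3g, 6 of 11 in eIF3d, 6 of 11 in eIF3b and 8 of 10 in eIF3a. Of all clusters 49.4% in eIF3g, 47.6% in eIF3d, 48.7% in eIF3b and 47.5% in eIF3a lay above the median. The splicing factor share was furthest from that of all clusters in eIF3a, at 80% against 47.5%. Among the 10 strongest clusters of a subunit were 3 of 41, all of DDX39B, against 2.78% of all clusters.

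The 8 genes held 638 of 62405 cluster reads in eIF3g, 763 of 24150 in eIF3d, 1223 of 19187 in eIF3b and 887 of 15132 in eIF3a. As shares these were 1.02% in eIF3g (95% Wilson interval 0.946 to 1.10), 3.16% in eIF3d (2.95 to 3.39), 6.37% in eIF3b (6.04 to 6.73) and 5.86% in eIF3a (5.50 to 6.25). The share moved with the clusters of EIF3A and of noncoding RNA, which weigh most in eIF3g, eIF3d and eIF3b. Without those clusters it was 2.75% in eIF3g, 5.0% in eIF3d, 10.1% in eIF3b and 6.57% in eIF3a. Without DDX39B the share of the other genes was 0.532% in eIF3g, 1.29% in eIF3d, 2.91% in eIF3b and 3.48% in eIF3a. The order of eIF3b and eIF3a then turned, though with DDX39B their intervals overlapped.

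Reads at a site were next set against each other for each pair of subunits, with a ratio past 2-fold in either direction as the call. Library depth is unknown, so ratios are read beside the median over all sites shared by the pair, which was -0.03 on the log2 scale for eIF3g over eIF3d, 0.22 for eIF3g over eIF3b, 0.00 for eIF3g over eIF3a, 0.37 for eIF3d over eIF3b, 0.15 for eIF3d over eIF3a and -0.27 for eIF3b over eIF3a. The medians over the splicing factor sites were, in the same order, -0.11, -0.37, -0.66, -0.13, -0.38 and -0.35. They lay below the all-site median in each pair, and the pairs share subunits, so they do not add up as separate observations.

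Between eIF3g and eIF3d, 1 of 9 splicing factor sites was past 2-fold, SRSF5, against 36.9% of all shared sites. Its log2 ratio of 1.56 was 0.19 after scaling by the total reads in clusters. Between eIF3g and eIF3b it was 5 of 9 (45.1% of all), with SRSF5 and the downstream U2AF2 site higher in eIF3g and DDX39B, RBM39 and the third C7orf55-LUC7L2 site lower. The U2AF2 ratio, 2.38, rests on 19 reads in eIF3g and 8 in eIF3b, and its interval, 0.993 to 6.27, includes no change. Between eIF3g and eIF3a it was 4 of 8 (38.7% of all), with SRSF5 higher and RBM39, SRSF11 and the third C7orf55-LUC7L2 site lower in eIF3g. The SRSF5 ratio of eIF3g over eIF3a, 2.69, turned to the other direction when reads were scaled by the total reads in clusters, at -0.61 on the log2 scale. The same scaling turned the downstream U2AF2 site in eIF3g over eIF3b, at -0.45.

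Between eIF3d and eIF3b, 4 of 11 sites were past 2-fold (38.7% of all), with SRSF5 and the downstream U2AF2 site higher in eIF3d and RBM39 and the third C7orf55-LUC7L2 site lower. Between eIF3d and eIF3a it was 3 of 10 (25.4% of all), and RBM39, SRSF11 and TRA2A were all lower in eIF3d. Between eIF3b and eIF3a it was 7 of 10 (38.0% of all). The 3 sites of C7orf55-LUC7L2 were higher in eIF3b, by 2.20, 2.12 and 2.36 times, and SRSF5, SRSF11, TRA2A and the downstream U2AF2 site were lower, at 0.25, 0.244, 0.361 and 0.267 times. The 2.12 ratio rests on 17 reads in eIF3b and 8 in eIF3a, and its interval, 0.869 to 5.69, includes no change.

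**Figure D4:**
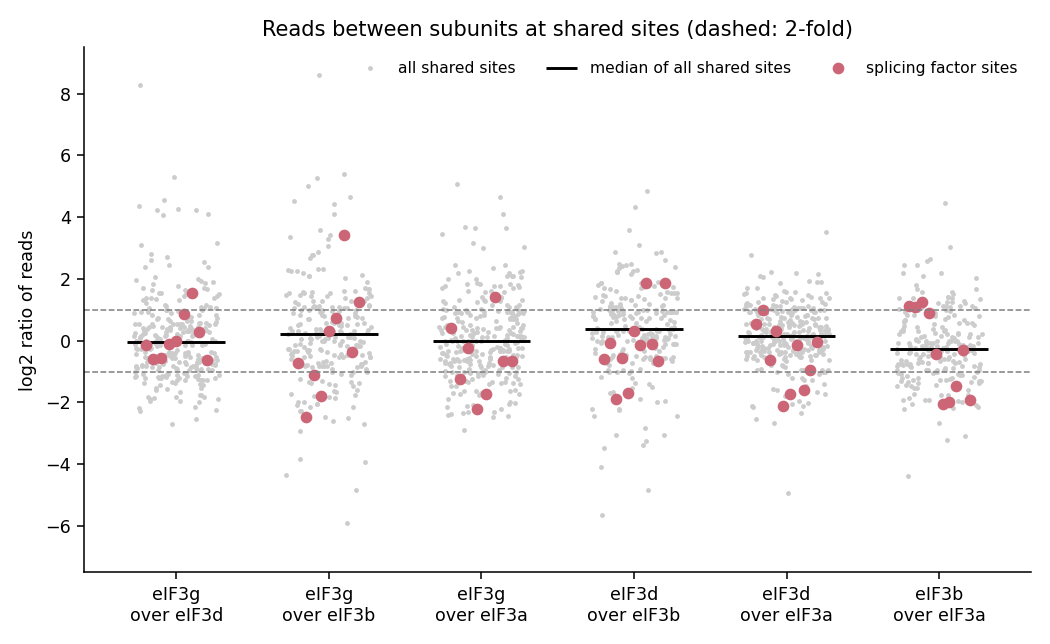
Log2 ratio of reads for each pair of subunits at shared sites, with all sites in grey, their median as a black bar and splicing factor sites as larger points. In eIF3b over eIF3a 7 of 10 splicing factor sites lie outside the dashed 2-fold lines, and in eIF3g over eIF3d 1 of 9 does.

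T-to-C conversions were then compared with reads. In eIF3g, eIF3b and eIF3a the splicing factor clusters carried about 1 conversion per read, with medians of 1.11 in eIF3g, 1.00 in eIF3b and 1.04 in eIF3a, and over all clusters 1.02 in eIF3g, 1.05 in eIF3b and 1.02 in eIF3a. No splicing factor cluster of the 30 in these subunits was under 0.5 conversions per read, against 10.1% of all clusters and 4.01% of all 5′ UTR clusters. The lowest were SRSF5 in eIF3b, with 6 conversions in 9 reads, and the second C7orf55-LUC7L2 site in eIF3a, with 6 in 8. The highest in eIF3g and eIF3a was SRSF11, where 36 conversions fell on 25 eIF3g reads and 123 on 82 eIF3a reads, while in eIF3b it had 19 on 20. The highest in eIF3b were DDX39B and the upstream U2AF2 site, at 1.21 conversions per read each.

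In eIF3d the splicing factor clusters had a median of 0.227 conversions per read, and all eIF3d clusters had 0.182. The value was under 0.5 times that of eIF3g at 8 of 9 sites (90.1% of all shared sites), that of eIF3b at 11 of 11 (93.9%) and that of eIF3a at 10 of 10 (93.3%). RBM39 was the site outside the limit against eIF3g, with 6 conversions in 14 eIF3d reads and 11 in 13 eIF3g reads. The splicing factor genes therefore showed the low eIF3d values that nearly all sites of the table showed.

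The number of conversions hardly moved with reads in eIF3d. It lay between 3 and 12 in all 11 splicing factor clusters, from SRSF3 with 5 in 11 reads to DDX39B with 10 in 451 reads. In eIF3g it lay between 11 and 336, in eIF3b between 6 and 803 and in eIF3a between 6 and 387. Of all eIF3d clusters 97.3% had 12 conversions or fewer, and the 8 of them with at least 300 reads had between 4 and 39. The DDX39B ratio of 0.0222 in eIF3d was at or above only 3.47% of eIF3d sites, while in eIF3g, eIF3b and eIF3a it carried 336, 803 and 387 conversions. How the eIF3d entries were counted is not stated in the labels or the file, so they are not read as weaker crosslinking.

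**Figure D5:**
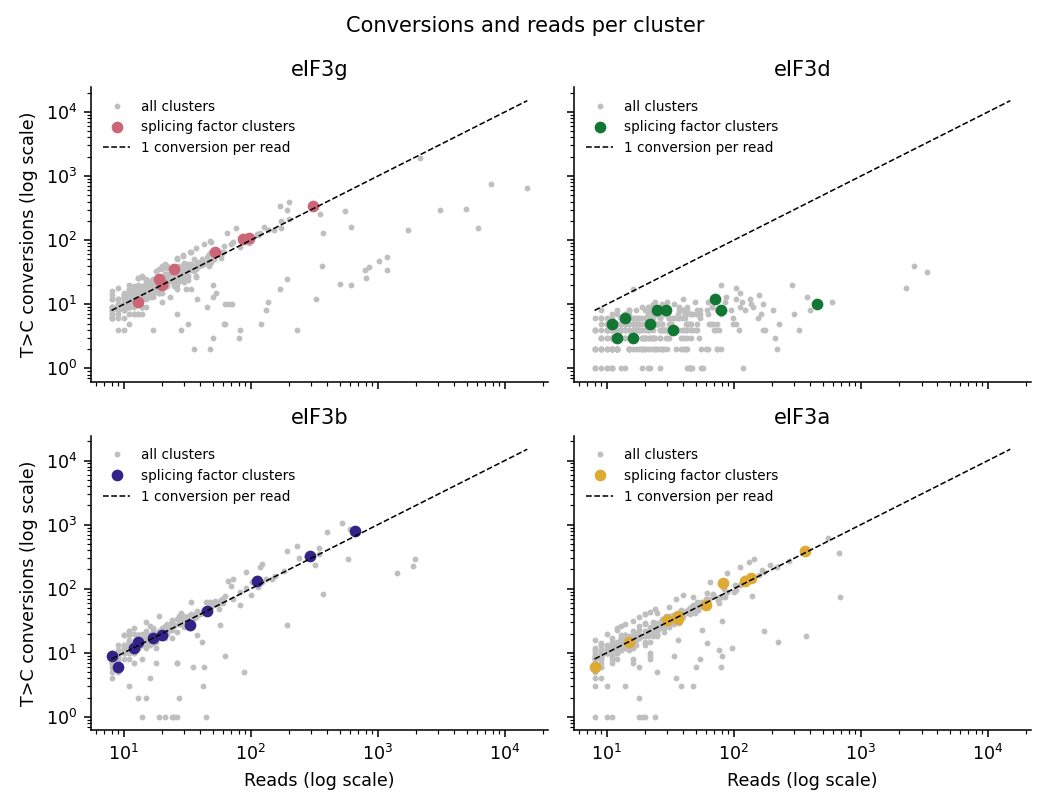
Conversions against reads per cluster (both axes log) in each subunit, with all clusters in grey, splicing factor clusters as larger points and a dashed line at 1 conversion per read. The points follow the line in eIF3g, eIF3b and eIF3a and stay between 3 and 12 conversions in eIF3d.

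The wider splicing machinery was covered by lists of 180 genes. Of these 16 had a cluster (8.89%), and the 8 described above are among them, chosen with these data known. Of the 20056 protein-coding genes in RefSeq, 443 had one (2.21%), a background that includes silent genes. Among 12 SR proteins 3 had a cluster, among 21 SR-like proteins 4, among 7 factors of the 3′ splice site 1 and among 20 genes of TREX and mRNA export 1. Of 9 U1 snRNP genes 2 had one, of 15 Sm and LSm core genes 3 and of 26 other splicing regulators 2. No cluster was listed for 18 U2 snRNP genes, 15 tri-snRNP genes, 24 PRP19 and catalytic step genes, 5 exon junction complex genes or 8 SR protein kinases.

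Of the 8 further genes 6 had all their clusters in the 5′ UTR, against 67.8% of all genes, and RBMX and SNRPA had theirs elsewhere. RBMX, an RNA-binding regulator of splicing, had 1179 reads in eIF3g and 57 in eIF3d, both in an intron, with 54 and 1 conversions. SNRPA, an RNA-binding protein of the U1 snRNP, had 84 reads in eIF3g, 163 in eIF3d, 31 in eIF3b and 141 in eIF3a at its start codon. LSM2, of the LSm ring on U6, ranged over the subunits from 30 to 43 reads, in the 5′ UTR, and TIAL1, a regulator that helps recruit U1, from 11 to 26. SNRPD3 and MBNL2 had 49 summed reads each, ACIN1 had 25 and SNRPD2 had 12.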

How the data were processed

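The series holds 1 table of crosslinked clusters from 12 libraries. Per the file headers, each line gives a gene, an hg19 position, a subunit, an annotation, a read count and a T>C conversion count. The authors deposited whole-number counts without normalization and without a replicate column. The submitters' processing notes name cutadapt, Bowtie, bedtools and hg19, without versions; the cluster caller, the pooling of replicates and the use of the replicate 1 barcode are not stated in the labels or the file. Positions may count from 0 or from 1 and are printed as deposited. Depth per library is unknown.

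Rows were taken by gene name and ranked by reads within a subunit, ties sharing the better rank. Same-strand clusters overlapping by at least 1 nt were joined into sites. Poisson, Wilson and conditional binomial intervals (95%) cover counting error only. No p-value was computed: with pooled values there is no spread between libraries. The per-library test named in the design could not be run. Functions were tested on simulated data. Python 3.11.15 with numpy 2.4.6, pandas 2.3.3 and scipy 1.17.1 was used. Names and upstream sequences are from RefSeq, GRCh38.p14.

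The members, the lists of splicing genes and the comparisons were chosen with earlier results of these data known. Named are the 8 members, of each list up to 3 further genes with most summed reads, the rank neighbours of the strongest member and the 3 genes nearest to it in profile. Alternatives were other ranks, denominators, scalings, thresholds and overlaps.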

Additional observations from a re-analysis of the deposited data

How the results depend on the processing

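No paired analysis was possible because the table has no replicate column, and leaving out a replicate was not run for the same reason. Of 43 alternative values for counts and shares, 24 stayed within 1.5 times the count reported or, for shares, within the interval. Ranked among 5′ UTR clusters alone, which numbered 1001 over all subunits, 5 clusters were among the 10 strongest of their subunit. These were the DDX39B cluster in each of the 4 subunits and the third C7orf55-LUC7L2 site in eIF3b. Shares without EIF3A and noncoding RNA were 2.75%, 5.0%, 10.1% and 6.57% in eIF3g, eIF3d, eIF3b and eIF3a, and without DDX39B, chosen after seeing the data, 0.532%, 1.29%, 2.91% and 3.48%. With reads scaled by total reads in clusters, sites past 2-fold were 7 of 9 for eIF3g over eIF3d (70.6% of all shared sites), 7 of 8 for eIF3g over eIF3a (82.7%), 5 of 10 for eIF3d over eIF3a (30.4%) and 4 of 10 for eIF3b over eIF3a (45.4%). That scaling turned SRSF5 in eIF3g over eIF3a to -0.61 (log2) and the downstream U2AF2 site in eIF3g over eIF3b to -0.45, and it moved the median of all sites to -2.04 and -1.48 in these pairs. Scaled by the median ratio they were 2 of 9 for eIF3g over eIF3d (34.1%) and 7 of 11 for eIF3d over eIF3b (39.1%). Past 3-fold were 0 of 9 for eIF3g over eIF3d (17.1%), 3 of 9 for eIF3g over eIF3b (26.6%), 2 of 8 for eIF3g over eIF3a (22.5%) and 3 of 10 for eIF3b over eIF3a (15.3%). A 10 nt overlap and the added pseudocounts changed no count. When clusters below their subunit's median were dropped, 4 of the 8 genes were listed for all 4 subunits, against 6 with all clusters. Over all genes 68 were then listed for all 4 subunits, against 161 with all clusters. Beyond the changed scaling and thresholds, the cause of these shifts was not tested.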
